A study of Rattus norvegicus with 100 samples.

Results

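The NRF2 glutathione and thioredoxin genes are a list of 8 named genes: the antioxidant enzymes Srxn1, Gclc, Gclm, Txnrd1, Hmox1 and Gsr, the transcription factor gene Nfe2l2 and the gene of its inhibitor, Keap1. Each gene was taken from the series matrix by its symbol, through the probe set that carries that single symbol and has the highest mean over all arrays. All 8 were found among 13439 genes with such a probe set, and all 8 are among the 8843 genes tested, with a log2 intensity above 5 in 100 of 100 arrays. Their Entrez gene IDs are 296271 (Srxn1), 25283 (Gclc), 29739 (Gclm), 58819 (Txnrd1), 24451 (Hmox1), 116686 (Gsr), 83619 (Nfe2l2) and 117519 (Keap1). Levels of different genes come from different probe sets and are not compared with each other.

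Primary rat hepatocytes, which are liver cells taken fresh from the animal and kept in culture, were exposed to GW7647, a synthetic agonist of the nuclear receptor PPARα. There were 6 concentrations (0, 0.001, 0.01, 0.1, 1 and 10 µM) and 5 times (2, 6, 12, 24 and 72 h), on 100 Affymetrix arrays of total RNA. The replicates are 4 codes, Rs627, Rs628, Rs631 and Rs632, which recur across conditions. The labels call them biological replicates and do not say whether each is a single animal, and they are called rats here. Each of the 30 groups had 2 to 4 arrays, and no group has more than 1 array of a rat.

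The groups used most were GW7647 at 1 µM (3 arrays at 2 h, 4 at each later time), GW7647 at 10 µM (4 arrays at 2 h, 3 at each later time) and 0 µM (3 arrays at 2, 12 and 24 h, 4 at 6 and 72 h). At 10 µM there was no array of Rs627 at 12, 24 and 72 h and none of Rs628 at 6 h. At 0 µM there was none of Rs628 at 2 and 24 h and none of Rs632 at 12 h, and at 1 µM none of Rs627 at 2 h. All groups were grown on collagen IV with a Geltrex overlay, and whether the 0 µM cells received the solvent is not given in the labels. Every comparison with GW7647 at a given time uses the same 0 µM arrays of that time, so the comparisons are not independent of each other.

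NRF2, the protein of Nfe2l2, is held in the cytoplasm and marked for degradation by KEAP1. Oxidants and electrophiles disturb KEAP1, NRF2 accumulates, pairs with a small MAF protein and binds antioxidant response elements in the promoters of genes for glutathione synthesis, thioredoxin reduction and detoxification. In liver this system protects against reactive drug metabolites and peroxide, and the RNA of a target gene is often read as a measure of its activity.

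The labelled cell type was checked first. The hepatocyte genes Alb, Ttr, Apoa1, Hnf4a, Tat and Cps1 were above log2 5 in 100 of 100 arrays, and Cyp2e1 in 47. Of the macrophage genes, Cd163, Clec4f, Csf1r and Ptprc were above 5 in 0 arrays, Cd68 in 24 and Cd14 in 100, and all 5 endothelial markers were above 5 in 0 arrays. Of the stellate cell genes, Acta2 was above 5 in 97 arrays, Col1a2 in 83 and Pdgfrb in 6. Of the bile duct genes, Epcam was above 5 in 100 arrays, Krt19 in 36, Krt7 in 23 and Sox9 in 0. In RNA from whole cultures, fewer cells of a type and less RNA per cell cannot be told apart. The PPARα targets Ehhadh and Cpt1a, enzymes of fatty acid oxidation, and Angptl4, a secreted lipase inhibitor, were called higher at 1 µM at 6, 12, 24 and 72 h, and at 72 h their log2 changes were 4.82, 1.75 and 0.94. The 75th percentile of the arrays ran from 6.42 to 7.27, and 5 arrays lay under 6.6; 3 of them are Rs631 and Rs632 at 1 µM and Rs631 at 10 µM at 24 h. The 0 µM arrays of 12 h labelled Rs627 and Rs628 each resembled the other rat's arrays more than those of their own label. Member calls at single times that rest on the low-signal arrays are also given without them. Without the pair of 12 h arrays, 0 µM at 12 h keeps only the array of Rs631, so calls without that pair are not given.

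The promoter windows of RefSeq (GRCr8 build, 250 bases before to 50 after each start) were searched for the core of the antioxidant response element, TGACNNNGC, on both strands, because this is the sequence the NRF2 pair reads. Windows were given for 6 members, 7 windows in all, and the core occurred in 4038 of 33469 windows of all genes (12.1%). One match in Gclm and one in Txnrd1 lay before the start, at position -172 of Gclm (plus strand, chr2:213031953-213031981, reading TGACTAAGC on the opposite strand) and at position -78 of the second Txnrd1 window (minus strand, chr7:22755964-22755992, reading TGACAAAGC on the opposite strand). Both are printed 5′ to 3′ on the gene's strand with the core in capitals and 10 bases on either side.
Gclm: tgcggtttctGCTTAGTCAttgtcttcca
Txnrd1: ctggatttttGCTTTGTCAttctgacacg
A further match, TGACGCCGC, lay 39 bases after the start of Nfe2l2. The windows of Srxn1, Gclc and Keap1 and the first window of Txnrd1 do not contain these letters. The matches are descriptions of the reference sequence, and no binding was measured.

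With GW7647 at 1 µM, 4 of the 8 genes were called lower than at 0 µM at both 24 h and 72 h: Srxn1, Gclc, Txnrd1 and Nfe2l2. Keap1 was called higher at 72 h, and Gclm, Hmox1 and Gsr were not called at any time or concentration. A gene was called where limma's adjusted p (Benjamini-Hochberg over the 8843 genes, two-sided) was under 0.05. The counts are to be read against all genes, of which 29.6 percent were called at 24 h and 26.8 percent at 72 h at 1 µM. The median log2 change of the 8 members was -0.32 at 24 h, against -0.23 for all genes, and -0.27 at 72 h, against -0.06 for all genes.

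**Figure D1:**
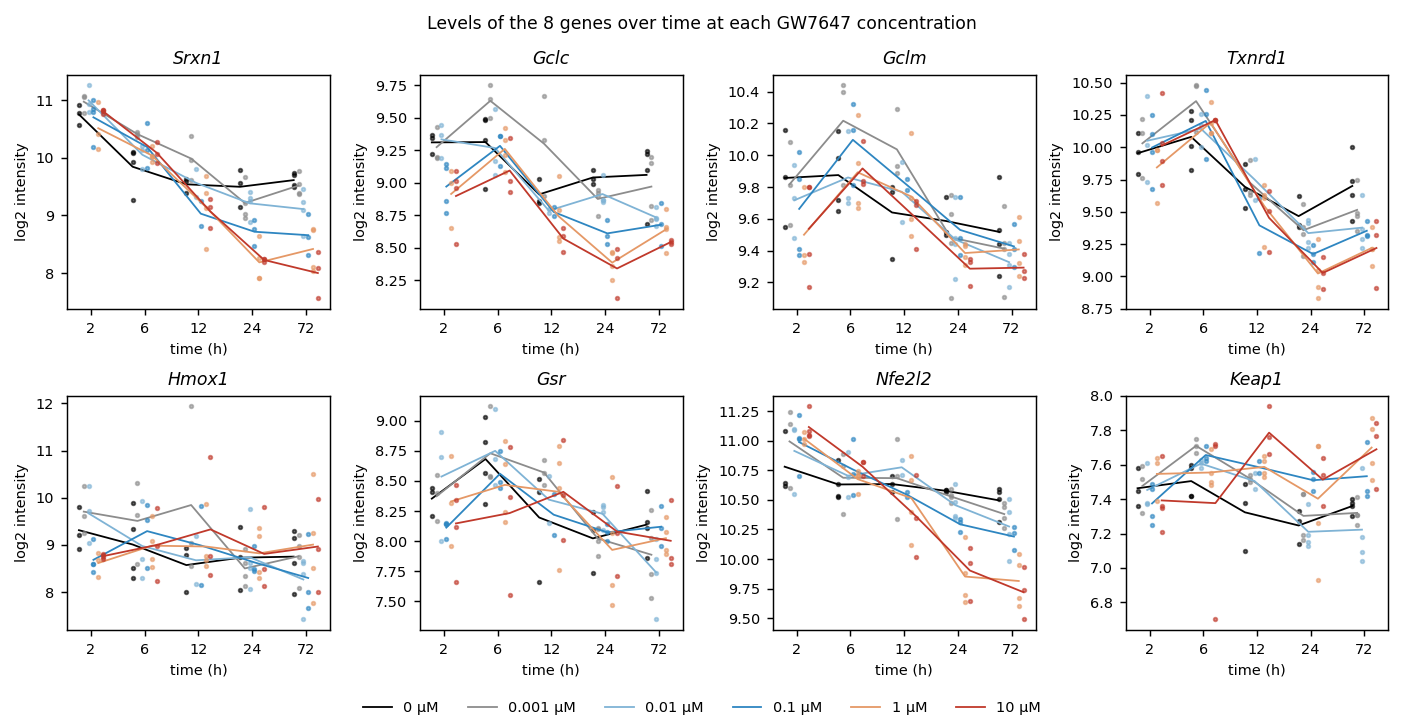
Log2 intensity (vertical axis) of the 8 genes, 1 panel each, against time of exposure in hours; times are evenly spaced, points are single arrays shifted sideways by concentration, colours the 6 concentrations of GW7647 in µM, and lines join group means. Srxn1 and Nfe2l2 separate by concentration at 24 and 72 h, where the 1 µM means of Srxn1 are 8.18 and 8.42 and the 0 µM means are 9.49 and 9.61.

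Over time at 0 µM, Srxn1 changed more than any other member. SRXN1, sulfiredoxin, repairs over-oxidised peroxiredoxins. At 0 µM its log2 intensity was 9.14, 9.78 and 9.57 on the 3 arrays of 24 h and 9.49, 9.52, 9.70 and 9.74 on the 4 arrays of 72 h, against 10.78, 10.91 and 10.57 on the 3 arrays of 2 h. No array of 24 or 72 h reached the lowest array of 2 h. The 6, 12, 24 and 72 h means were 9.84 ± 0.39 (SD, n = 4), 9.54 ± 0.13 (SD, n = 3), 9.49 ± 0.32 (SD, n = 3) and 9.61 ± 0.13 (SD, n = 4), against 10.75 ± 0.17 at 2 h (SD, n = 3). Relative to 2 h, it changed by -0.91 ± 0.23, -1.21 ± 0.24, -1.26 ± 0.24 and -1.14 ± 0.23 log2 in that order (± SE), with limma adjusted p of 0.0144, 0.000558, 0.000692 and 0.0013. The later means lay closer to each other than any of them lay to the mean of 2 h.

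Srxn1 was the 1 member of 8 called at each of these times, where 1.5 percent of all genes were called at 6 h, 1.79 percent at 12 h, 1.41 percent at 24 h and 3.4 percent at 72 h. With the rat in the model, Txnrd1 was also called lower at 24 h (adjusted p 0.0136, limma; 0.125 without the rat), with a log2 change of -0.49. A second, dimmer probe set of Txnrd1 changed by -0.09 at that time (adjusted p 0.977, limma without the rat and with every probe set as a feature). The other 6 members had changes between -0.74 and 0.33 in the 4 comparisons. The values below -0.40 were those of Hmox1, with intervals that include 0. Each of these 4 comparisons rests on the same 3 arrays of 2 h, and leaving out 1 rat ended the Srxn1 call at each time: without Rs631 the adjusted p were 0.228, 0.0556 and 0.0551 at 6, 12 and 72 h, and without Rs627 it was 0.116 at 24 h. At 6 h it was also lost without Rs627 (0.0814) or Rs628 (0.138). Without the pair of 12 h arrays that resembled another rat, 0 µM at 12 h keeps only the array of Rs631, so no call is read from that fit.

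Several members had their highest group mean at 6 h. Gclm and Txnrd1 had it there at each of the 6 concentrations, Gsr at all but 10 µM, Gclc at all but 0.01 µM and Keap1 at 4 of 6. At 0 µM the mean of Txnrd1 was 10.08, 9.69, 9.47 and 9.70 at 6, 12, 24 and 72 h, against 9.95 at 2 h. Gclm had 9.88, 9.64, 9.59 and 9.52 at these times, against 9.86 at 2 h. For both genes the 6 h arrays overlapped those of 2 h, and the 6 h change was not called (adjusted p 0.813 for Txnrd1 and 0.989 for Gclm, limma).

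Srxn1 had the largest response of the 8 genes to GW7647. At 24 h its log2 intensity was 7.91, 8.26, 8.65 and 7.92 at 1 µM and 8.20, 8.24 and 8.24 at 10 µM, against 9.14, 9.78 and 9.57 at 0 µM. At 72 h it was 8.11, 8.04, 8.77 and 8.75 at 1 µM and 7.56, 8.08 and 8.36 at 10 µM, against 9.49, 9.52, 9.70 and 9.74 at 0 µM. All arrays of both concentrations lay below all arrays of 0 µM at both times. The mean at 24 h was 8.18 ± 0.35 at 1 µM (SD, n = 4), against 9.49 ± 0.32 at 0 µM (SD, n = 3), which is a log2 change of -1.31 ± 0.23 (95% interval -1.76 to -0.86), or 2.48-fold lower, with a limma adjusted p of 5.76e-06. At 72 h the log2 change at 1 µM was -1.20 ± 0.21 (95% interval -1.61 to -0.78), or 2.29-fold lower, with an adjusted p of 4.25e-06. Srxn1 was lower in each rat that had both arrays, 3 of 3 at 24 h and 4 of 4 at 72 h, where the rats' own changes ran from -1.48 to -0.93.

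At 10 µM the log2 change of Srxn1 was -1.27 ± 0.24 at 24 h (adjusted p 4.42e-05, limma) and -1.61 ± 0.23 at 72 h (adjusted p 1.8e-08), 2.4-fold and 3.06-fold lower. Those at 72 h come from means of 8.0 ± 0.41 at 10 µM (SD, n = 3) and 9.61 ± 0.13 at 0 µM (SD, n = 4). For this probe set, the Srxn1 calls at 24 and 72 h held at both concentrations under every alternative run, with log2 changes between -1.79 and -1.02. A second, dimmer probe set of Srxn1 was not called at 24 h, at -0.78 at 1 µM (adjusted p 0.0574) and -0.81 at 10 µM (0.0975). Over the 5 times the group means of Srxn1 spanned 1.26 log2 at 0 µM, 1.76 at 0.001 µM, 1.89 at 0.01 µM, 2.04 at 0.1 µM, 2.33 at 1 µM and 2.81 at 10 µM. These spans were not tested, and at each of the 6 concentrations the highest mean was that of 2 h.

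Nfe2l2, which codes for NRF2 itself, was lower at the same times. At 24 h it had 9.70, 10.19, 9.88 and 9.64 at 1 µM and 10.09, 9.97 and 9.65 at 10 µM, against 10.58, 10.57 and 10.58 at 0 µM. At 72 h it had 9.67, 9.95, 10.04 and 9.60 at 1 µM and 9.74, 9.93 and 9.49 at 10 µM, against 10.59, 10.57, 10.51 and 10.31 at 0 µM. The groups did not overlap at either time. The log2 change at 1 µM was -0.72 ± 0.15 at 24 h (1.65-fold lower, adjusted p 0.000214, limma) and -0.68 ± 0.14 at 72 h (1.6-fold lower, adjusted p 0.000121), with the same sign in 3 of 3 and 4 of 4 rats. At 10 µM it was -0.67 ± 0.16 at 24 h (adjusted p 0.00167) and -0.78 ± 0.15 at 72 h (1.71-fold lower, adjusted p 4.04e-05).

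In culture without agonist the Nfe2l2 means lay between 10.49 and 10.78 over the 5 times, and no change from 2 h was called. The log2 change was -0.20 at 24 h (adjusted p 0.74, limma) and -0.28 at 72 h (0.307), and at both times the groups did not overlap and 3 of 3 rats were lower than at 2 h. Its span over the times was 0.28 at 0 µM, 0.61 at 0.001 µM, 0.63 at 0.01 µM, 0.80 at 0.1 µM, 1.20 at 1 µM and 1.40 at 10 µM, which was not tested. At 2 h the Nfe2l2 means were 11.11 at 10 µM and 11.02 at 1 µM, against 10.78 at 0 µM, and neither difference was called.

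Of the enzymes of glutathione synthesis in the list, Gclc was called lower and Gclm was not called. Gclc, the catalytic subunit of glutamate-cysteine ligase, which makes the first step of glutathione synthesis, had 8.46, 8.47, 8.36 and 8.25 at 1 µM at 24 h and 8.49, 8.11 and 8.42 at 10 µM, against 9.03, 8.99 and 9.10 at 0 µM. All treated arrays lay below all 0 µM arrays. The log2 change was -0.65 ± 0.14 at 1 µM (1.57-fold lower, adjusted p 0.000189, limma) and -0.70 ± 0.15 at 10 µM (1.62-fold lower, adjusted p 0.000244). At 72 h Gclc had 8.64, 8.66, 8.46 and 8.80 at 1 µM and 8.54, 8.56 and 8.53 at 10 µM, against 9.24, 8.68, 9.10 and 9.22 at 0 µM. One 0 µM array, of Rs628, lay within the range of the 1 µM arrays. The log2 change at 72 h was -0.42 ± 0.13 at 1 µM (1.34-fold lower, adjusted p 0.00812) and -0.51 ± 0.14 at 10 µM (1.43-fold lower, adjusted p 0.00248). Without Rs627 or without Rs631 the 1 µM value at 72 h had an adjusted p of 0.113 or 0.1.

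Gclm, the modifier subunit of the same ligase, was not called. At 72 h it had 9.46, 9.24, 9.32 and 9.61 at 1 µM, against 9.86, 9.24, 9.53 and 9.44 at 0 µM, and the groups overlapped. The log2 change at 1 µM was -0.11 ± 0.16 at 72 h (95% interval -0.43 to 0.22, adjusted p 0.688, limma) and -0.20 ± 0.18 at 24 h (95% interval -0.55 to 0.15, adjusted p 0.381), where the groups did not overlap. Gsr, glutathione reductase, which returns oxidised glutathione to its reduced form, had 7.89, 8.08, 8.20 and 7.93 at 1 µM at 72 h, against 8.16, 8.11, 8.42 and 7.86 at 0 µM. These groups overlapped too, and the log2 change was -0.12 ± 0.22 (adjusted p 0.758). Of these ligase subunits one was called and the other was not, and the difference between their changes was not tested.

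Txnrd1, the cytosolic thioredoxin reductase, had 8.92, 9.05, 9.29 and 8.83 at 1 µM at 24 h, against 9.38, 9.62 and 9.40 at 0 µM. At 72 h it had 9.08, 9.21, 9.38 and 9.21 at 1 µM and 8.91, 9.43 and 9.32 at 10 µM, against 9.63, 10.00, 9.74 and 9.43 at 0 µM. The 1 µM and 0 µM arrays did not overlap at either time, while at 10 µM the value of Rs631 equalled that of Rs632 at 0 µM at 72 h. The log2 change at 1 µM was -0.44 ± 0.15 at 24 h (1.36-fold lower, adjusted p 0.0224, limma) and -0.47 ± 0.14 at 72 h (1.39-fold lower, adjusted p 0.00708). At 10 µM it was -0.44 ± 0.16 at 24 h (adjusted p 0.0509, and 0.00477 with the rat in the model) and -0.48 ± 0.15 at 72 h (adjusted p 0.0118). The Txnrd1 call at 24 h and 1 µM was lost without Rs627 (0.0666), Rs631 (0.121) or Rs632 (0.0812), and that at 72 h without Rs627 (0.0589) or Rs628 (0.0763). The 10 µM value at 72 h was -0.22 without Rs628 (adjusted p 0.406).

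Keap1, the adaptor that marks NRF2 for degradation, moved the other way at 72 h. It had 7.81, 7.87, 7.51 and 7.61 at 1 µM and 7.84, 7.77 and 7.46 at 10 µM, against 7.38, 7.40, 7.30 and 7.36 at 0 µM. All treated arrays lay above all 0 µM arrays. At 1 µM it changed by 0.34 ± 0.13 log2, or 1.26-fold higher, with an adjusted p of 0.0371 (limma) and the same sign in 4 of 4 rats. That call was lost without any 1 of the 4 rats, with adjusted p from 0.0709 to 0.149. At 10 µM the change was 0.33 ± 0.14 (adjusted p 0.0611, and 0.0462 with the rat in the model). At 24 h Keap1 had 7.71, 7.71, 7.26 and 6.93 at 1 µM, against 7.14, 7.33 and 7.27 at 0 µM, where the lower pair at 1 µM came from the arrays of low signal. Its 24 h change was 0.16 ± 0.14 (adjusted p 0.379), and without the low-signal arrays it was 0.46 (adjusted p 0.00297).

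**Figure D2:**
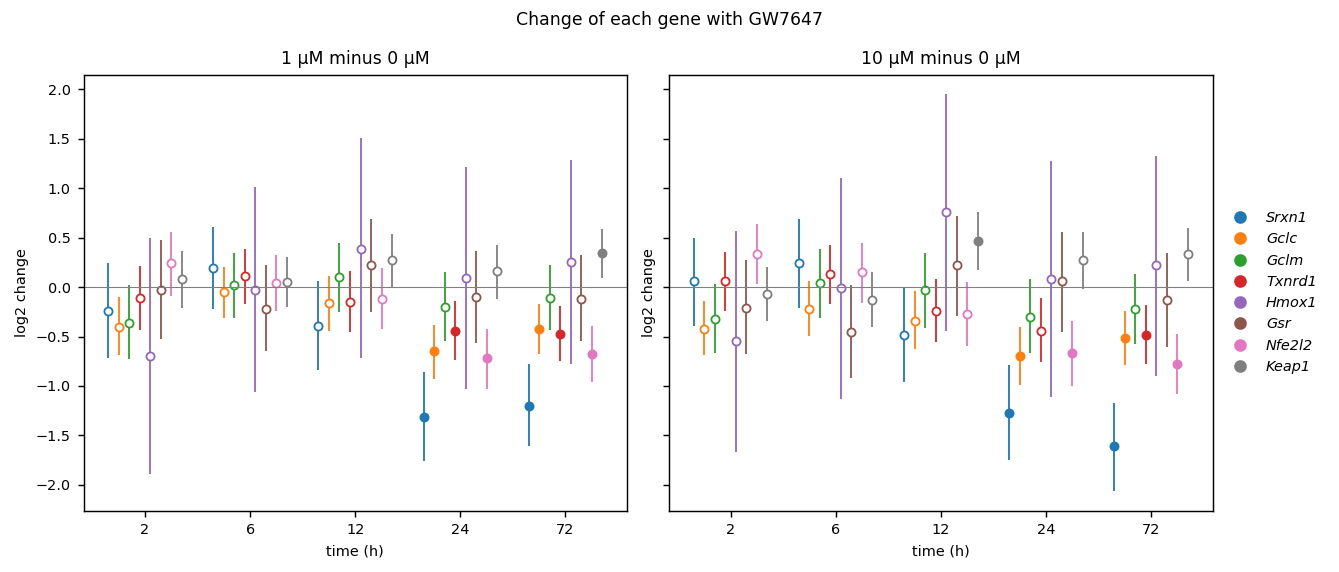
Log2 change with 95% intervals of the 8 genes at 5 times, at 1 µM minus 0 µM (left) and 10 µM minus 0 µM (right); filled points have a limma adjusted p under 0.05. The intervals of Srxn1, Gclc, Txnrd1 and Nfe2l2 lie below 0 at 24 and 72 h in both plots, and those of Gclm, Gsr and Hmox1 include 0 throughout.

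Without the low-signal arrays the 24 h log2 change at 1 µM was -1.41 for Srxn1 (adjusted p 6.9e-05, limma), -0.57 for Gclc (0.00964), -0.63 for Nfe2l2 (0.0132) and -0.48 for Txnrd1 (0.0652). At 10 µM it was -1.27 for Srxn1 (0.000278), -0.58 for Gclc (0.00705), -0.71 for Nfe2l2 (0.00414) and -0.50 for Txnrd1 (0.0472). Of these, Txnrd1 at 1 µM lost its call and Txnrd1 at 10 µM gained one.

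The size of the 24 h changes depends on the scaling. At 1 µM the median of all genes tested changed by -0.23 at 24 h, and the mean 75th percentile of the arrays was 6.69 ± 0.26 at 1 µM (SD, n = 4) and 6.99 ± 0.11 at 0 µM (SD, n = 3). Of the 2619 genes called, 624 were higher, whereas with quantile normalization 907 of 2298 were higher, and with each array centred on the median of the tested genes, 1384 of 2083. With that centring the 24 h log2 change at 1 µM was -1.02 for Srxn1 (adjusted p 0.000654, limma), -0.36 for Gclc (0.0857), -0.43 for Nfe2l2 (0.0705), -0.15 for Txnrd1 (0.575) and 0.45 for Keap1 (0.000208). Relative to the median gene at 24 h, then, Srxn1 was called lower and Keap1 higher, and the other 3 had lower values that were not called. At 10 µM the same centring gave -1.11 for Srxn1 (0.000682), -0.54 for Gclc (0.0176), -0.51 for Nfe2l2 (0.0556), -0.28 for Txnrd1 (0.378) and 0.43 for Keap1 (0.00125).

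At 72 h the median of all genes changed by -0.06, and centring moved the members less. It gave -1.13 for Srxn1 (adjusted p 3.33e-05, limma), -0.61 for Nfe2l2 (0.00361) and 0.41 for Keap1 (0.000175) at 1 µM, which all stayed past the threshold. Gclc at -0.35 (0.0621) and Txnrd1 at -0.40 (0.0616) did not, and at 10 µM Txnrd1 at -0.43 (0.0657) did not. Of all genes at 1 µM, 998 of 2373 called were higher as deposited and 1291 of 2449 with the centring.

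At 1 µM the calls of members came at 24 and 72 h, which is not by itself a test that the changes were late. At 1 µM, 0 of the 8 genes were called at 2, 6 or 12 h, when 0.373, 2.04 and 5.41 percent of all genes were called. By limma's unadjusted p under 0.05, 1 member passed at 2 h (Gclc), 0 at 6 h and 0 at 12 h. At 10 µM, 0 members were called at 2 and 6 h and 1 at 12 h, where 1.02, 4.3 and 7.95 percent of all genes were called. By the unadjusted p, 2 members passed at 2 h and 0 at 6 h. They were Gclc at -0.42 (adjusted p 0.193, limma) and Nfe2l2 at 0.33 (0.586). The 12 h call was Keap1, at 7.66, 7.94 and 7.76 at 10 µM, against 7.38, 7.10 and 7.49 at 0 µM. Its log2 change was 0.47 ± 0.15 (adjusted p 0.0316). The call was lost without Rs628 (0.129), Rs631 (0.188) or Rs632 (0.106). Without the pair of 0 µM arrays that resembled another rat, 0 µM at 12 h keeps only the array of Rs631, so no call is read from that fit. With the rat in the model Gclc was also called lower at 10 µM, by -0.38 at 2 h (adjusted p 0.0457) and -0.35 at 12 h (0.0338). At 10 µM the shares of all genes called at 24 and 72 h were 17.1 and 28 percent, and 3 and 4 members were called, all lower.

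The difference between the 24 h and the 2 h change at 1 µM was tested itself. It was -1.07 ± 0.33 for Srxn1 (95% interval -1.73 to -0.41, adjusted p 0.0402, limma) and -0.96 ± 0.23 for Nfe2l2 (95% interval -1.41 to -0.51, adjusted p 0.00439), 2 members of 8, where 5.03 percent of all genes were called. With centring on the tested genes it was -0.75 for Srxn1 (0.198) and -0.64 for Nfe2l2 (0.144), neither of them called. The Srxn1 call was lost without Rs627 (0.0818), Rs631 (0.284) or Rs632 (0.278), and that of Nfe2l2 without Rs631 (0.148). For Gclc the difference was -0.26 (interval -0.66 to 0.14, adjusted p 0.417, limma). For Txnrd1 it was -0.33 (interval -0.77 to 0.11, adjusted p 0.346). Neither was called, so for Gclc and Txnrd1 a larger fall at 24 h than at 2 h was not shown. The change at 24 h was not tested against that at 6 or 12 h. Between 72 h and 24 h the difference was 0.11 for Srxn1 (95% interval -0.50 to 0.72) and 0.05 for Nfe2l2 (95% interval -0.37 to 0.46). No member of 8 was called there by the adjusted or the unadjusted p, and 0.0226 percent of all genes were.

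**Figure D3:**
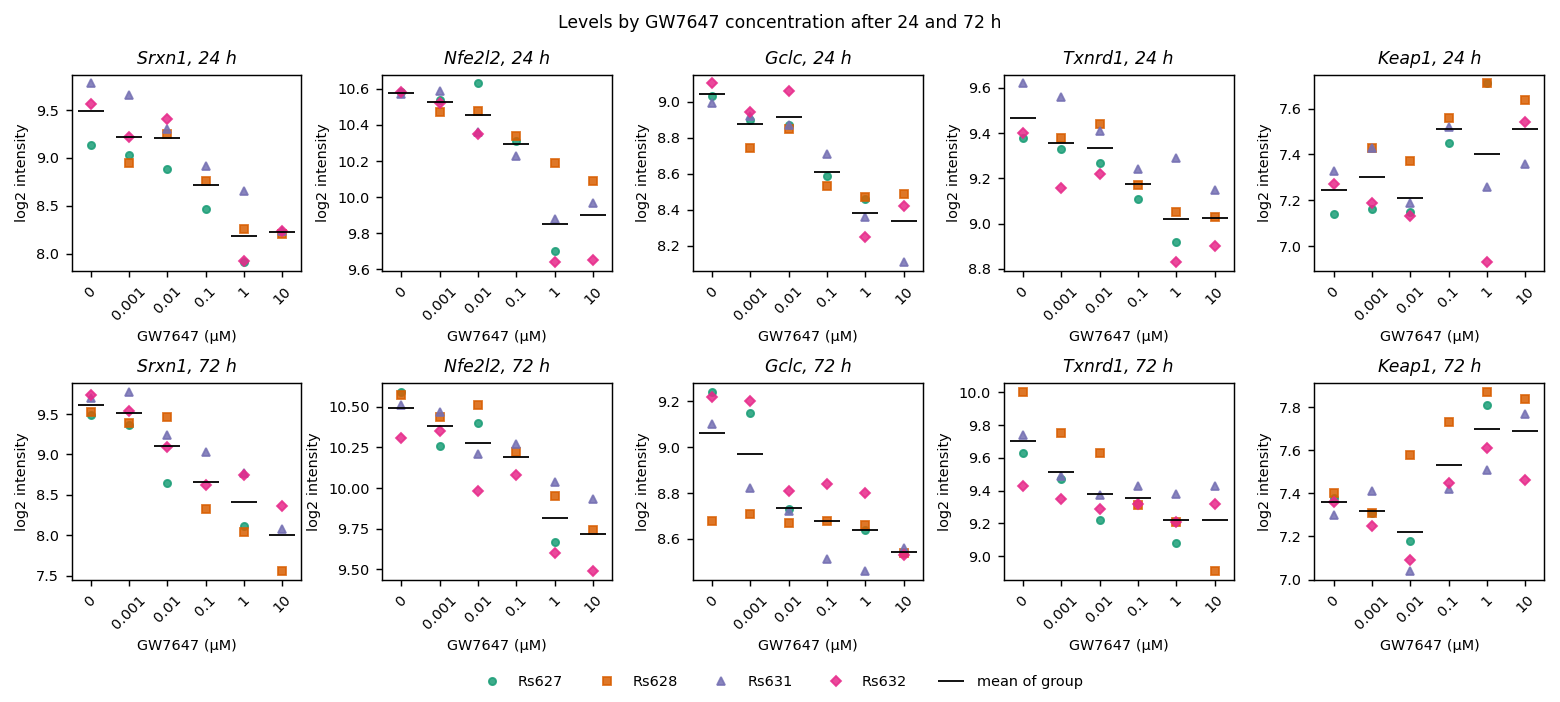
Log2 intensity (vertical axis) of Srxn1, Nfe2l2, Gclc, Txnrd1 and Keap1 by concentration of GW7647 in µM at 24 h (top) and 72 h (bottom); points are single arrays marked by rat and bars are group means. The 72 h means of Srxn1 run 9.61, 9.51, 9.11, 8.66, 8.42 and 8.0 over the 6 concentrations.

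Averaged over the times, the lowest concentration with a call was 0.1 µM for Srxn1 and Gclc and 1 µM for Txnrd1, Nfe2l2 and Keap1. This holds for the brightest probe set of each gene. With every probe set as a feature (limma), the second Srxn1 probe set was not called at 0.1 µM (0.0732) and was at 1 µM (0.0309). That of Gclc was not called at 0.1 or 1 µM (0.253 and 0.175) and was at 10 µM (0.00657). That of Txnrd1 was not called at 0.1, 1 or 10 µM (0.271, 0.0717 and 0.0579). At 72 h the group means of Srxn1 were 9.61 at 0 µM, 9.51 at 0.001 µM, 9.11 at 0.01 µM, 8.66 at 0.1 µM, 8.42 at 1 µM and 8.0 at 10 µM, with SDs of 0.13 at 0 µM and 0.41 at 10 µM. Those of Nfe2l2 were 10.49, 10.38, 10.28, 10.19, 9.82 and 9.72 in the same order. The means of both genes descended at each step at 72 h. The Srxn1 arrays of 1 µM overlapped those of 0.1 and of 10 µM, and for Nfe2l2 those of 10 and 1 µM overlapped. At 0.1 µM the Srxn1 arrays of 72 h were 8.32, 9.03 and 8.62, within the range of 8.04 to 8.77 at 1 µM but for the highest, and all below the 0 µM arrays.

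Averaged over the 5 times, the log2 change of Srxn1 was 0.17 at 0.001 µM, -0.06 at 0.01 µM, -0.39 ± 0.11 at 0.1 µM, -0.59 ± 0.10 at 1 µM and -0.61 ± 0.10 at 10 µM, with limma adjusted p of 0.00639, 1.46e-06 and 1.25e-06 at the 3 highest. That of Gclc was 0.08, -0.12, -0.26 ± 0.06, -0.34 ± 0.06 and -0.44 ± 0.06, with adjusted p of 0.00218, 5.3e-06 and 3.36e-08 at the 3 highest. Without Rs632 the 0.1 µM value of Srxn1 was -0.26 (adjusted p 0.229), and without Rs631 that of Gclc had an adjusted p of 0.0666. Txnrd1 changed by -0.21 ± 0.07 at 1 µM (0.00854) and -0.19 ± 0.07 at 10 µM (0.0222), and at 0.1 µM by -0.15 (0.155, and 0.0495 with the rat in the model). Nfe2l2 changed by -0.25 ± 0.07 at 1 µM (0.0024) and -0.25 ± 0.07 at 10 µM (0.00329), with -0.07 at 0.1 µM (0.612). Keap1 was higher by 0.18 ± 0.06 at 1 µM (0.0148) and 0.17 ± 0.06 at 10 µM (0.0224), with 0.15 at 0.1 µM (0.106).

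These averages put 0 members of 8 past the threshold at 0.001 µM, 0 at 0.01 µM, 2 at 0.1 µM, 5 at 1 µM and 5 at 10 µM, where 0, 0.69, 14.3, 35.4 and 39.4 percent of all genes were called. By the unadjusted p, 0 members passed at 0.001 µM and 0 at 0.01 µM. With centring on the tested genes, Txnrd1 and Nfe2l2 left the averaged calls, at -0.14 (adjusted p 0.192, limma) and -0.17 (0.0915) at 1 µM and -0.09 (0.42) and -0.15 (0.168) at 10 µM. Without Rs627, Txnrd1 (0.127), Nfe2l2 (0.0756) and Keap1 (0.0895) were not called in the 1 µM average. In the 10 µM average Txnrd1 (0.157) and Nfe2l2 (0.075) were not called without Rs627, nor Txnrd1 (0.0824) without Rs631, nor Keap1 without Rs628 (0.126), Rs631 (0.142) or Rs632 (0.0977).

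Between 10 and 1 µM, averaged over the times, no member was called (0 of 8 by the adjusted and 0 by the unadjusted p), and 0 percent of all genes were called. The difference was -0.02 for Srxn1 (95% interval -0.22 to 0.18), -0.10 for Gclc (-0.22 to 0.02), 0.02 for Txnrd1 (-0.11 to 0.16), 0 for Nfe2l2 (-0.14 to 0.14) and -0.01 for Keap1 (-0.13 to 0.12). For Gclm it was -0.06 (-0.21 to 0.10), for Gsr -0.06 (-0.27 to 0.15) and for Hmox1 0.10 (-0.40 to 0.60).

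Hmox1, haem oxygenase 1, which breaks haem down to biliverdin, carbon monoxide and iron, varied more between arrays of 1 group than the other 7 genes and was not called in any comparison. Its values ran from 7.42 to 11.94 over the 100 arrays, and its SD within groups was 0.75, against 0.18 to 0.31 for the others. At 72 h it had 8.51, 7.76, 9.26 and 10.50 at 1 µM and 8.0, 8.92 and 9.98 at 10 µM, against 9.15, 8.61, 7.95 and 9.30 at 0 µM. The treated arrays lay on both sides of the 0 µM arrays. The log2 change at 1 µM was 0.25 ± 0.52 at 72 h (adjusted p 0.779, limma) and 0.09 ± 0.56 at 24 h (adjusted p 0.914).

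Part of the Hmox1 spread followed the rat. The mean deviation from the group mean was 0.74 for Rs632, -0.04 for Rs627, -0.26 for Rs628 and -0.46 for Rs631, a range of 1.2, where the ranges of the other 7 genes were 0.1 to 0.36. The highest array of all was Rs632 at 0.001 µM and 12 h, at 11.94, and Rs632 at 10 µM and 12 h had 10.86. At 2 h, Hmox1 had 8.75, 8.71, 8.79 and 8.80 at 10 µM and 8.32, 8.84 and 8.69 at 1 µM, against 9.22, 8.91 and 9.81 at 0 µM. All arrays of these concentrations lay below those of 0 µM at 2 h, and the log2 changes of -0.55 (adjusted p 0.9, limma) and -0.70 (adjusted p 1) were not called. Within groups, over the 100 arrays, the deviations of Hmox1 were correlated with those of each cell type marker. The r of largest size were 0.75 with Cd68, a lysosomal protein abundant in macrophages, and 0.60 with Apoa1, a hepatocyte apolipoprotein. Next was -0.56 with Cd14, a macrophage gene that went the other way. The other macrophage genes had r from -0.14 (Cd163) to 0.23 (Clec4f), and the other hepatocyte genes from -0.36 (Ttr) to 0.25 (Hnf4a). These correlations share rats and arrays, Cd68 was above log2 5 in 24 arrays, and their part in the Hmox1 spread was not tested.

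**Figure D4:**
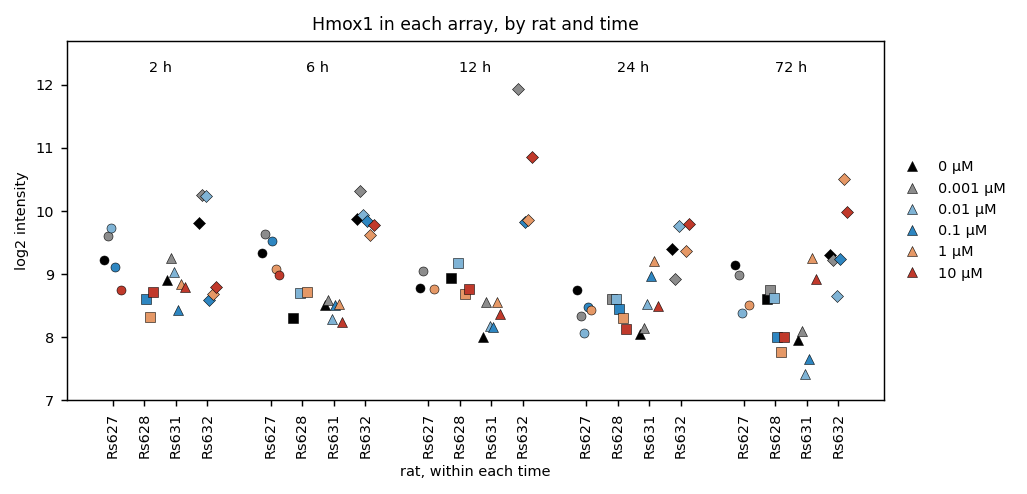
Log2 intensity of Hmox1 (vertical axis) on each array, by rat within each time of exposure; colours are the concentrations of GW7647 in µM. The arrays of Rs632 reach 11.94 and their mean deviation from the group means is 0.74.

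The r between Srxn1 and Nfe2l2, Txnrd1 or Gclc was higher across conditions than within them, which was not so with Keap1. Over the 30 group means, Pearson's r of Srxn1 was 0.93 with Nfe2l2, 0.88 with Txnrd1 and 0.81 with Gclc, and -0.11 with Keap1. Over the deviations of the 100 arrays from their group means it was 0.29, 0.60, 0.25 and 0.08. Gclc and Gclm, whose proteins form 1 enzyme, had 0.80 over the group means and 0.29 within groups, and Gclc and Txnrd1 had 0.87 and -0.30. The group means share rats and times in culture, so these are descriptions.

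Among all genes tested, those whose 30 group means followed Srxn1 most closely were Maff (r = 0.983), a small MAF protein, Hspb8 (0.973), a small heat shock protein, and Chka (0.97), choline kinase. For Nfe2l2 they were Osgin1 (0.956), an oxidative stress-induced growth inhibitor, and Tnfrsf12a (0.952), the TWEAK receptor. For Gclc they were Snx5 (0.931), Mapk6 (0.924) and Casp12 (0.923), for Gclm Cxcl10 (0.948), Ugdh (0.92) and Commd6 (0.914), and for Txnrd1 Pcna (0.967), Map3k6 (0.958) and Gabbr2 (0.957). The nearest to Keap1 were Zc3hc1 (0.887), Txnrd3 (0.884) and Abcf3 (0.88), to Gsr Hdgf (0.942), Ssrp1 (0.913) and Ryk (0.909), and to Hmox1 Pdk1 (0.802), Adm (0.785) and Pi4ka (0.771). Hmox1 had the lowest likeness to any other gene among the 8 members.

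Other probe sets of the same genes were dimmer. The second Srxn1 probe set (mean 6.53) correlated with the first at r = 0.92 over the arrays and changed at 1 µM by -0.78 at 24 h (adjusted p 0.0574, limma with every probe set as a feature) and -1.16 at 72 h (0.00171). The second Gclc probe set (mean 6.79, r = 0.83) changed by -0.43 at 24 h (0.138) and -0.07 at 72 h (0.863), and that of Txnrd1 (mean 7.76, r = 0.79) by -0.56 (0.102) and -0.60 (0.0662). All had the sign of the brighter probe set at these times, and of these 6 values the Srxn1 value at 72 h was called. At 0 µM, relative to 2 h, the second Srxn1 probe set changed by -0.51, -1.45, -1.38 and -1.09 at 6, 12, 24 and 72 h. Its adjusted p by the same fit were 0.563, 0.00561, 0.0195 and 0.0396, so it was not called at 6 h and was at the later times.

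Around the members, other genes of the NRF2 pathway were taken from lists of their functions, which were chosen with earlier results of these data known. At 72 h and 1 µM, where 26.8 percent of all genes were called (998 of 8843 higher and 1375 lower), 7 of 14 other NRF2 target genes tested (19 listed) were called lower and 1 higher, with a median log2 change of -0.79, against -0.06 for all genes. The largest falls were in Abcc2, the canalicular export pump for glutathione conjugates, at 7.75 at 1 µM, against 10.16 at 0 µM (log2 change -2.42 ± 0.37, 5.33-fold lower, adjusted p 2.48e-07, limma), and Gstp1, a glutathione transferase, at 8.57, against 10.65 (-2.08 ± 0.60, 4.24-fold lower, 0.00524). Osgin1 had 9.31 at 1 µM, against 10.07 at 0 µM (-0.75 ± 0.17, 0.000467). The export pumps Abcc3 (-0.82, 0.0233) and Abcc4 (-1.16, 0.00185) and the aldo-keto reductases Akr7a3 (-1.06, 0.0119) and Akr1b8 (-1.57, 0.00212) were also called lower. The treated means of Abcc4 and Akr1b8, 4.80 and 4.54, were under the floor of 5.

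Me1, malic enzyme, which supplies NADPH and is also a PPARα target, went the other way, at 11.66 at 1 µM, against 10.03 at 0 µM (1.63 ± 0.22, 3.1-fold higher, adjusted p 8.05e-09, limma). Nqo1, the quinone reductase often used as the readout of NRF2, had 7.76 at 1 µM, against 8.82 at 0 µM, which was not called (-1.06 ± 0.50, 0.107), and at 10 µM its change of -1.39 was (0.043). The counts for these targets at 72 h were 7 lower and 1 higher also with quantile normalization and with centring on the tested genes. At 24 h they were 6 lower and 1 higher as deposited, 2 lower and 2 higher with that centring, and 2 lower and 1 higher without the low-signal arrays.

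**Figure D5:**
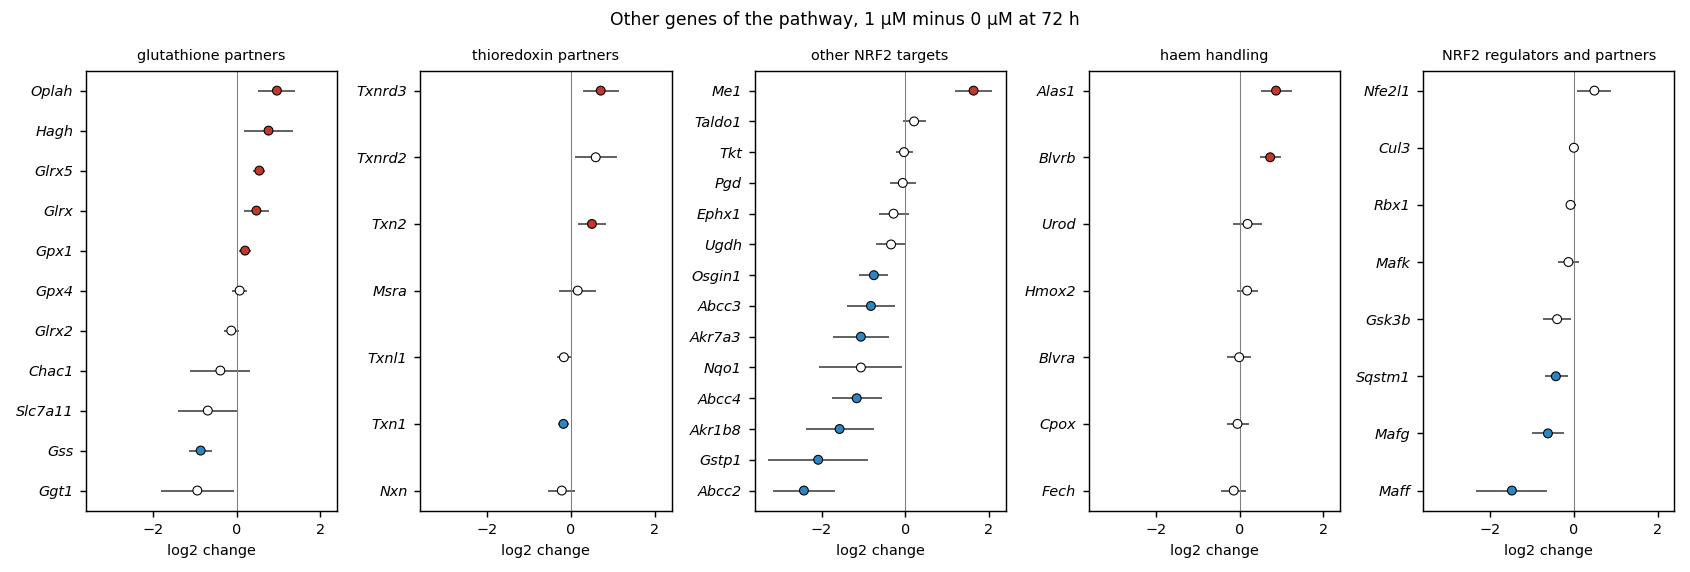
Log2 change (horizontal axis) at 1 µM minus 0 µM at 72 h with 95% intervals for genes of 5 pathway lists, 1 panel each; red filled points were called higher, blue filled points lower (limma adjusted p under 0.05) and open points were not called. Of the 14 other NRF2 targets 7 are blue and 1, Me1, is red.

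The glutathione genes outside the list were mixed at 72 h and 1 µM, with 5 of 11 tested (12 listed) called higher and 1 lower, where 998 of all 8843 genes were called higher and 1375 lower. Gss, glutathione synthetase, the enzyme after the Gclc and Gclm ligase, had 7.86 at 1 µM, against 8.72 at 0 µM (-0.86 ± 0.14, adjusted p 9.92e-07, limma). Oplah, 5-oxoprolinase, which returns glutamate from the glutathione cycle, had 8.92, against 7.95 (0.96 ± 0.22, 1.95-fold higher, 0.000453). The glutaredoxins Glrx (0.47 ± 0.15, 0.0129) and Glrx5 (0.54 ± 0.07, 3.49e-09), the glyoxalase Hagh (0.76, 0.0438) and the peroxidase Gpx1 (0.20, 0.0343) were also called higher. Gpx1 was not called with centring on the tested genes or without the arrays at repeated plate positions. Slc7a11, the cystine importer that feeds Gclc, had 6.52 at 1 µM, against 7.88 at 0 µM at 24 h (-1.36 ± 0.39, 2.57-fold lower, 0.00605). Without the low-signal arrays neither Slc7a11 nor Gss was called at 24 h at 1 µM, while at 10 µM Gss was still called lower and Slc7a11 was not called.

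Of 7 other thioredoxin genes tested (8 listed) at 72 h and 1 µM, the mitochondrial thioredoxin Txn2 (0.50, adjusted p 0.0219, limma) and the reductase Txnrd3 (0.71, 0.00848) were called higher, and the cytosolic thioredoxin Txn1 lower (-0.18, 0.0305), 3 of 7 where 26.8 percent of all genes were called. Txn1 was not called with quantile normalization or with centring on the tested genes. Txnrd3 had 6.67 at 1 µM, against 5.96 at 0 µM, while Txnrd1, as given above, was lower at that time.

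Of the 7 haem genes tested, Alas1, the first enzyme of haem synthesis, had 10.71 at 1 µM at 72 h, against 9.84 at 0 µM (0.87 ± 0.19, adjusted p 0.000156, limma), and Blvrb, a biliverdin reductase, had 10.50, against 9.76 (0.73 ± 0.13, 3.58e-06). These 2 of 7 were called higher and 0 lower, a share near the 26.8 percent of all genes called. In the same comparison Hmox1 changed by 0.25 ± 0.52.

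Of 8 regulators and partners of NRF2 tested (10 listed), 3 were called lower at 72 h and 1 µM and 0 higher, where 26.8 percent of all genes were called. Maff, a small MAF partner, had a mean of 4.72 at 1 µM, under the floor of 5, against 6.20 at 0 µM (-1.48 ± 0.43, adjusted p 0.0053, limma). Sqstm1, the p62 protein that draws KEAP1 into autophagy, changed by -0.43 (0.0151), and Mafg had 4.12, against 4.74, both under the floor (-0.62, 0.0113). With centring on the tested genes Maff alone of the 3 was called. At 24 h, 3 were called lower and 1 higher at 1 µM, the higher one being Nfe2l1, a relative of Nfe2l2, at 6.50 at 1 µM, against 5.94 at 0 µM (0.57 ± 0.22, 0.0414), and at 10 µM it changed by 0.78 (0.0118). Without the low-signal arrays Nfe2l1 was not called at either concentration. Another small MAF gene, Mafk, was called higher at 2 h at 1 µM, at 8.43, against 7.77 at 0 µM (0.65 ± 0.15, 0.0132), a time at which no member was called.

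Over time at 0 µM, several of these genes were called lower at 72 h than at 2 h, together with Srxn1: Osgin1 (-0.69, adjusted p 0.0241, limma), Maff (-1.66, 0.0261), Mafg (-0.84, 0.0118), Mafk (-0.51, 0.0257) and Cul3 (-0.23, 0.0276), the ubiquitin ligase scaffold that KEAP1 recruits. Chac1, which degrades glutathione, was called higher, at 8.99 at 72 h, against 6.61 at 2 h (2.38 ± 0.39, 4e-05). In this comparison 281 of all 8843 genes were called lower and 20 higher. The calls were 1 of 14 other NRF2 targets and 4 of 8 regulators and partners, all lower, and 1 of 11 glutathione genes, higher. They rest on the same 3 arrays of 2 h as the Srxn1 call, and their values without 1 rat are not given here.

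Some markers of other cell types and a measure of RNA quality also differed with the agonist in the same samples. The mean level over the 6 macrophage markers measured at 72 h was 4.33 to 4.87 at 1 µM and 4.13 to 4.56 at 0 µM. Cd163, Clec4f, Csf1r and Ptprc were under 5 in all arrays. Of the 2 macrophage markers tested, Cd14 was called higher at 1 µM at 24 h (0.72, adjusted p 0.0424, limma) and 72 h (0.83, 0.0103). The other, Cd68, was not called. The median log2 change of the 2 was 0.13 at 24 h, so that of Cd68 was negative there, and 0.58 at 72 h. Of 3 stellate cell markers tested (6 listed), Col1a2 (4.57 at 1 µM, under the floor of 5, against 5.31 at 0 µM, -0.75, 0.000335) and Acta2 (5.27, against 5.82, -0.55, 0.00248) were called lower at 72 h, as at 10 µM (-0.65 and -0.67), and 0 were called at 24 h. The mean over the 6 stellate markers at 72 h was 3.88 to 4.12 at 1 µM and 4.15 to 4.20 at 0 µM, without overlap, with Col1a1, Des and Lrat under 5 in all arrays. Of the 7 hepatocyte markers at 72 h, Cyp2e1 was called higher (7.19 at 1 µM, against 4.25 at 0 µM, under the floor) and Ttr lower (12.53, against 12.81, -0.28). The β-actin 3′ minus 5′ difference, a sign of RNA integrity, was 1.97 ± 0.15 log2 at 1 µM and 1.66 ± 0.18 at 0 µM at 72 h (SD, n = 4 each), and 1.83 ± 0.48 at 1 µM (n = 4) and 1.93 ± 0.25 at 0 µM (n = 3) at 24 h. That of Gapdh was 0.34 at 1 µM and 0.35 at 0 µM at 72 h. The part of these values in the changes of Srxn1, Gclc, Txnrd1, Nfe2l2 and Keap1 was not tested.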

How the data were processed

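Per the labels' protocols, total RNA was amplified from its 3′ end, labelled with biotin and hybridised, 1 sample per array. Each deposited value is a log2 intensity of 1 probe set on 1 array, and no further scaling was applied. The submitters' processing notes name GCRMA and Partek but give neither a version nor a role. Of 31139 probe sets, 19069 had 1 gene symbol (61.2%), 572 several and 11498 none. A gene was taken at its probe set with the highest mean, and 8843 genes above log2 5 in at least 3 arrays were tested.

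The model had 30 group means on 100 arrays (70 residual degrees of freedom) and was fitted with limma 3.58.1 in R 4.3.3, two-sided, with Benjamini-Hochberg adjustment per comparison at 0.05, in 22 comparisons. Figures used Python 3.11.15 and matplotlib 3.10.9. The fit was tested on simulated data. Genes of the lists are named as far as their list was described, and likeness names up to 3 genes of highest r. The members, lists and named genes were chosen with earlier results of these data known.

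Replicate codes pair arrays across groups: the median correlation of deviations was 0.62 within a code and -0.23 between codes, and 95 of 100 arrays were nearest an array of their own code. Deviations from a group mean cancel within the group, which by itself pulls the correlations between codes to negative values. The code was a block in an alternative. The labels do not say whether arrays of 1 code are separate cultures, so p-values measure the spread between these arrays. Other alternatives changed the filter, the scaling, the arrays and the probe sets. The number of arrays limits the precision, and no sample was left out of the main model.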

Additional observations from a re-analysis of the deposited data

Results flagged for a closer look

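In 3 of the 96 gene-by-group sets of 4 arrays, 1 array stood apart from the others, where chance sets aside about 1 in 20. Gclc at 0.01 µM and 24 h was 9.06 in Rs632, against 8.85 to 8.87 in the other rats. Hmox1 at 1 µM and 12 h was 9.86 in Rs632, against 8.55 to 8.77 in the others. Gsr at 0.1 µM and 2 h was 8.02 in Rs628, against 8.14 to 8.15 in the others.

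For 2 genes the change at 1 µM differed between 24 h and 2 h by the test of the difference itself: Srxn1 by -1.07 (limma adjusted p 0.0402) and Nfe2l2 by -0.96 (limma adjusted p 0.00439). Neither was called with each array centred on the median of the tested genes.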

How the results depend on the processing

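Of 611 values of the 45 gene results under the alternatives, 521 kept their direction and side of the threshold, 62 lost a call, 28 gained one and 0 changed sign. Leaving out 1 rat gave 37 of the lost calls.

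Numbers of members called are given with the number as deposited after them. With the replicate block (rat in the model), 1 against 0 were called at 10 µM and 2 h, 2 against 1 at 10 µM and 12 h, 2 against 1 at 0 µM and 24 h, 4 against 3 at 10 µM and 24 h, 5 against 4 at 10 µM and 72 h, and 3 against 2 in the average at 0.1 µM, and no call was lost. Of all genes, that block called 229, 1458, 475, 3021, 3632 and 2509 in these comparisons, against 90, 703, 125, 1511, 2477 and 1263. Median centring left 0 against 1 at 10 µM and 12 h. Without the pair of arrays nearest another rat, 0 µM at 12 h keeps only the array of Rs631, so counts from that fit are not given. Without arrays of low signal, 5 against 3 were called at 10 µM and 24 h. Without arrays at repeated plate positions, 5 against 3 were called there, 1 against 0 at 1 µM and 12 h (Keap1, 0.37, limma adjusted p 0.0184) and 2 against 1 at 0 µM and 24 h. Centring on the tested genes gave 2 against 4 at 1 µM and 24 h, 3 against 5 at 1 µM and 72 h, and 3 against 5 in the averages at 1 and at 10 µM. For the difference between 24 and 2 h, 1 against 2 were called with no filter, quantile normalization, median centring or without arrays of low signal, and 0 with centring on the tested genes.

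Leaving out each rat in turn gave 2 to 4 members at 1 µM and 72 h, 0 to 1 at 10 µM and 12 h, 1 to 2 in the average at 0.1 µM, 2 to 5 at 1 µM and 3 to 4 at 10 µM, 0 to 1 at 0 µM at each of 6, 12, 24 and 72 h, and 0 to 2 for the difference between 24 and 2 h. The call of Keap1 at 1 µM and 72 h had an adjusted p of 0.0504 with no filter and 0.0506 with median centring, and that of Txnrd1 at 1 µM and 24 h had 0.0625 with quantile normalization and 0.0652 without arrays of low signal (limma). Of all genes, 4405 with the rat in the model and 1292 without arrays of low signal were called at 1 µM and 24 h, against 2619 as deposited, and 3564 with the rat in the model at 72 h, against 2373. The centring on the tested genes and the removal of arrays nearest another rat were chosen after seeing the data. With 2 to 4 arrays a group, the intervals of Gclm, Gsr and Hmox1 leave room for changes as large as some of those called.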
